A study of Homo sapiens with 12 samples.

Results

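CCND1 and E2F3, a pair of genes that drive the passage of cells from G1 into S phase, were followed through 6 lists of RNA sites bound by the protein NONO. Their members are every peak that the authors' annotation gave to either gene, 321 of the 26351 peaks in the lists, of which 276 lay in CCND1 and 45 in E2F3. In all, 1689 gene names had a peak. The genes were selected on the number, place and sharing of their peaks in these same lists, so their counts and group differences are given as a description, with intervals and no test.

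The study used 22Rv1, an established human prostate cancer cell line, and enhanced crosslinking and immunoprecipitation (eCLIP), in which UV light joins RNA to protein and the RNA pulled down with NONO is sequenced beside an input library. The groups were cells given 0.04% DMSO, cells given 20 µM SKBG-1(R) in 0.04% DMSO and cells given 20 µM SKBG-1(S) in 0.04% DMSO, each for 4 h. All groups were the same line with NONO present, grown for 40 h and crosslinked with 400 mJ of UV. Each group had 2 immunoprecipitates with their own inputs, and nothing in the labels says that replicates came from separate cultures, so the spread between them may be technical.

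NONO is a nuclear RNA-binding protein that works with SFPQ and PSPC1 and is known for its place in paraspeckles and for binding introns of unspliced RNA. Cyclin D1, the product of CCND1, activates CDK4 and CDK6, which phosphorylate RB and free E2F factors. E2F3 is one of those activating factors, and it is made from alternative promoters as E2F3a and, from a start inside the first intron of the longer gene, as E2F3b. CCND1 has an alternative transcript, cyclin D1b, that reads into intron 4 and has been studied in prostate cancer.

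The lists differed in size, with 669 and 3678 peaks under DMSO, 1953 and 14847 under SKBG-1(R) and 1237 and 3967 under SKBG-1(S), in the order of replicates 1 and 2. The second SKBG-1(R) list therefore held more peaks than the other 5 together. No read counts were given. Depth is therefore unknown, and list size limits the precision. Counts below are also given per 10000 peaks of the list. Among prostate markers, SPDEF had 55 peaks and TMPRSS2 had 5, none of 6 markers of other cell types had any, and of 6 neuroendocrine markers only SRRM4 did, with 12. A gene without peaks may still be expressed.

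The E2F3 sequence is shown first because it holds the one stretch of either gene that lay inside a peak of every list. It is the plus strand of chr6:20403364-20403613 (GRCh38.p14, from RefSeq), in intron 1 of E2F3 and ending at the base before the RefSeq start of the shorter transcript. Capitals mark the 80 bases, 20403412 to 20403491, that were inside a peak of all 6 lists.
E2F3 stretch of all lists: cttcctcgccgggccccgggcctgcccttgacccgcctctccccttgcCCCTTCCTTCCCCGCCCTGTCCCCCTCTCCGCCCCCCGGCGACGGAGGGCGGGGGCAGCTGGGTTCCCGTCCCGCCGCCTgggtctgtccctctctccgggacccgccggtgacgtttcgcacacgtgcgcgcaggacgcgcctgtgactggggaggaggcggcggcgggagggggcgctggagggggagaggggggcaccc
The next stretch, chr6:20402723-20402857 on the plus strand, is shown because its capitals (20402786 to 20402855) were inside a peak of DMSO replicate 2 and SKBG-1(S) replicate 2 and of no SKBG-1(R) list. The first lower-case bases, up to 20402754, lie in peaks of the SKBG-1(R) lists.
E2F3 stretch with the region of DMSO replicate 2 and SKBG-1(S) replicate 2: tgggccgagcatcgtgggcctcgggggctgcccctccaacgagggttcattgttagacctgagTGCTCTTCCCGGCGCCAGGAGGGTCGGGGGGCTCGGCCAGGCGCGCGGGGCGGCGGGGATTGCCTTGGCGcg

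For CCND1, 3 short stretches are shown from GENCODE 29 transcripts (GRCh38, plus strand). The first, chr11:69647957-69647996, is the end of intron 3 and the first 3 bases of exon 4. Its capitals lay in a peak of SKBG-1(R) replicate 2, the only CCND1 peak of any list that touched coding sequence of the main transcript.
CCND1 end of intron 3: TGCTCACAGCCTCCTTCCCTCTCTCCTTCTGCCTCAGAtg
The other two are whole peaks in the 3′ UTR, where only the SKBG-1(R) lists had any: chr11:69652044-69652073 from replicate 1 and chr11:69653564-69653583 from replicate 2.
CCND1 3′ UTR peak of replicate 1: TGTCGGGCACCAGCCAGCGTAGCAGGGTCG
CCND1 3′ UTR peak of replicate 2: GCGGGCGCGATCCCACACAG

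CCND1 (ENSG00000110092.3, chr11:69641087-69654474, plus strand, 13.39 kb, GRCh38) has 5 exons in its main transcript CCND1-201. Every one of its 276 peaks lay downstream of exon 3, and the first began 227 nt after the end of that exon. By their midpoints, 175 peaks were in intron 3, 89 in intron 4 and 12 in the 3′ UTR. No peak of any list touched exons 1 to 3 or introns 1 and 2, which lie in the first 3 kb. CCND1 was thus among 116 genes with none of their peaks in their first 3 kb, out of 441 genes with at least 10 peaks and a matched gene model, whose median share there was 29.03%.

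**Figure D1:**
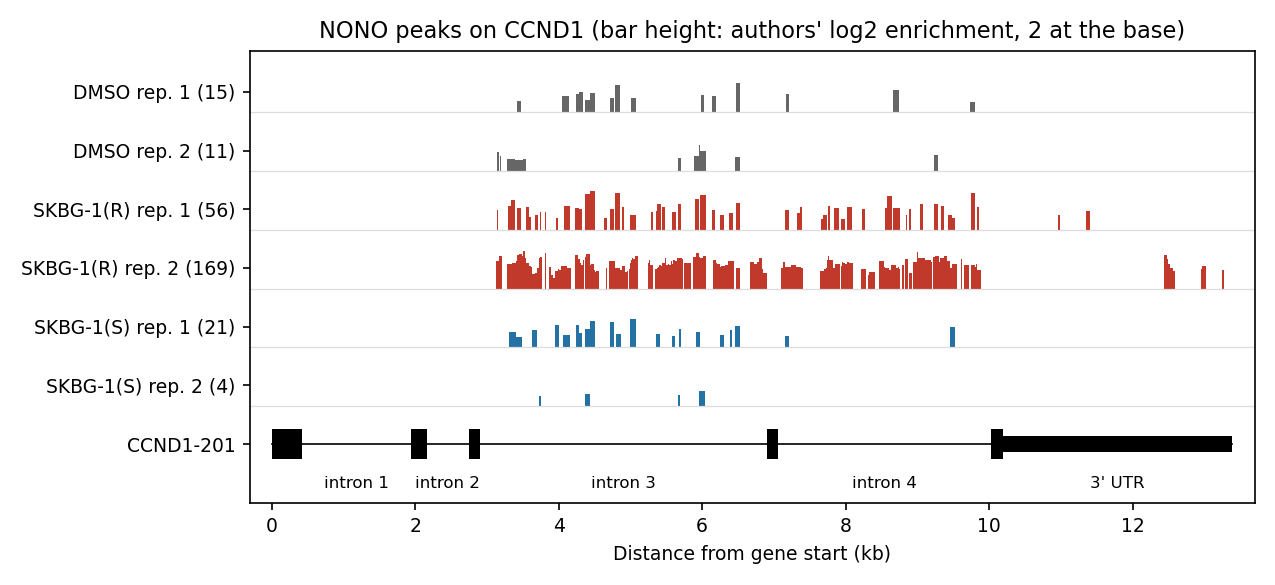
Peaks of each list along CCND1, in kb from the gene start, with the exons of CCND1-201 at the bottom and the number of peaks beside each list. Bar height is the authors' log2 enrichment over input, drawn from 2. All 276 peaks start after exon 3, and peaks cover 34.2 and 72.0% of intron 4 in the SKBG-1(R) lists and at most 6.32% in the others.

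CCND1 numbered 15 and 11 peaks under DMSO, 56 and 169 under SKBG-1(R) and 21 and 4 under SKBG-1(S). In raw number both SKBG-1(R) lists stood above all 4 others, and for how many other genes this held was not counted. Per 10000 peaks of the list the values were 224 and 29.9 under DMSO, 287 and 114 under SKBG-1(R) and 170 and 10.1 under SKBG-1(S). On that scale the groups overlapped, since the second SKBG-1(R) list stood below the first DMSO list and the first SKBG-1(S) list. Among lists of the same replicate number, SKBG-1(R) was the highest both times. Nothing in the labels ties same-numbered lists together, and the number of other genes with this order was not counted. Replicate 2 was the lower of the pair in every group. By number of peaks CCND1 ranked 4 and 73 among the genes of the DMSO lists, 3 and 13 under SKBG-1(R) and 6 and 223 under SKBG-1(S).

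The group means per 10000 peaks were 127 ± 137 under DMSO, 200.3 ± 122 under SKBG-1(R) and 89.9 ± 113 under SKBG-1(S) (SD, n = 2 lists each). In the limma fit (log2, prior count 2) CCND1 was 1.06 higher with SKBG-1(R) than with DMSO, with a 95% interval from -1.23 to 3.36. Against SKBG-1(S), at the same dose and time, it was 1.88 higher with SKBG-1(R), with an interval from -0.41 to 4.17. SKBG-1(S) against DMSO gave -0.81, with an interval from -3.10 to 1.48. All 3 intervals include 0, and those against DMSO share their control lists. Over the 479 genes tested, 0% were called at an adjusted p under 0.05 by limma in each of the 3 comparisons, with 15, 6 and 5 genes at an unadjusted p under 0.05 for SKBG-1(R) against DMSO, SKBG-1(S) against DMSO and SKBG-1(R) against SKBG-1(S). The medians of all tested genes were 0.23, 0.14 and -0.08 on the log2 scale. The value for SKBG-1(R) against DMSO was -0.30 without DMSO replicate 2, and that against SKBG-1(S) was 0.09 without SKBG-1(S) replicate 2.

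**Figure D2:**
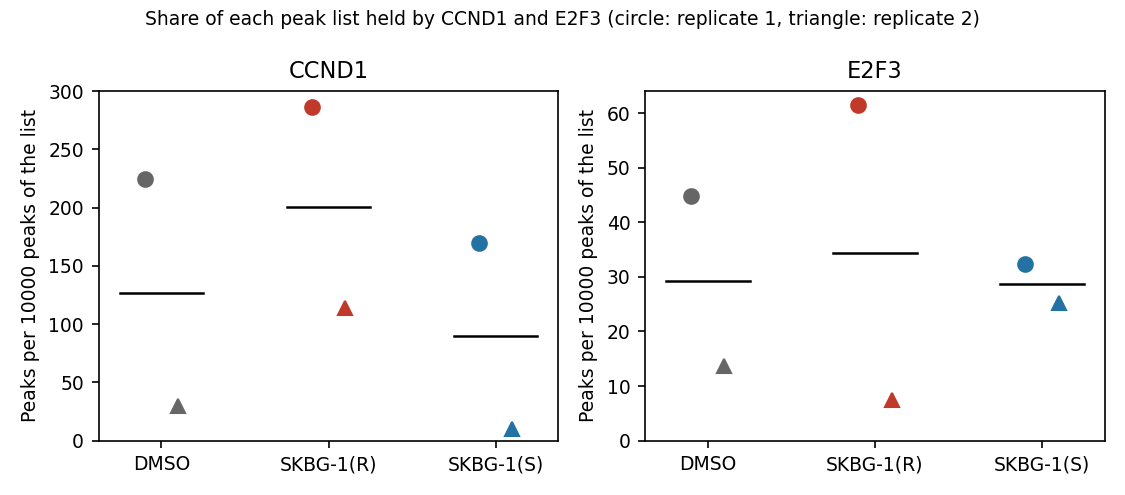
Peaks of CCND1 and E2F3 per 10000 peaks of each list, by treatment, with circles for replicate 1, triangles for replicate 2 and a line at the group mean. For both genes the 2 lists of a group differ as much as the groups do, and replicate 1 is the higher in every group.

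When each list was cut to its 669 peaks of highest −log10 p, the size of the smallest list, CCND1 held 15 and 7 under DMSO, 34 and 153 under SKBG-1(R) and 16 and 2 under SKBG-1(S). On this scale both SKBG-1(R) lists were above all 4 others, while DMSO and SKBG-1(S) overlapped. The fitted difference between SKBG-1(R) and DMSO was 2.59 (log2). Of the 88 genes tested by limma at this size, 18 had an unadjusted p under 0.05 for that comparison and 0 were called. For how many genes both SKBG-1(R) lists stood above the others was not counted. In the second SKBG-1(R) list most CCND1 peaks thus fell among its strongest. CCND1 held 23 of the 39 peaks of that list at the cap of 400 for −log10 p, 15 in intron 3 and 8 in intron 4. Peaks at the cap occurred in 8 genes over all lists, and the gene next to CCND1 had 9.

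The peaks stood closely together. CCND1 had 20.6 peaks per kb of gene over all lists, the highest of the 441 genes, whose median was 0.518. The next were RP11-368N21.5 with 11.9 and MIRLET7BHG, a microRNA host gene, with 11.02. Without SKBG-1(R) replicate 2, CCND1 had 7.99 per kb and was still the highest, of 258 genes. By median width, CCND1 peaks were narrowest in the SKBG-1(R) lists, which had the most of them. The median CCND1 peak was 60 nt in both DMSO lists and 45 and 25 nt in the SKBG-1(R) lists. It was 59 and 53.5 nt in the SKBG-1(S) lists. The part of peak splitting in the counts was not tested, but the fit on summed widths in place of counts gave 0.59 (log2) for SKBG-1(R) against DMSO.

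Covered length does not depend on how a peak is split. In intron 3 (69643992 to 69647993, 4.002 kb), peaks covered 18.4 and 14.99% of the bases in the DMSO lists, 37.3 and 72.8% in the SKBG-1(R) lists, and 29.5 and 5.50% in the SKBG-1(S) lists. In intron 4 (69648143 to 69651117, 2.975 kb) they covered 6.32 and 2.02% under DMSO, 34.2 and 72.0% under SKBG-1(R) and 3.93 and 0% under SKBG-1(S). For both introns the SKBG-1(R) lists were above all others in covered length, which was not scaled to list size. The gap was wider in intron 4. List size also moved with treatment, and its part in these covered lengths was not tested. The number of other genes with this order was not counted.

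**Figure D3:**
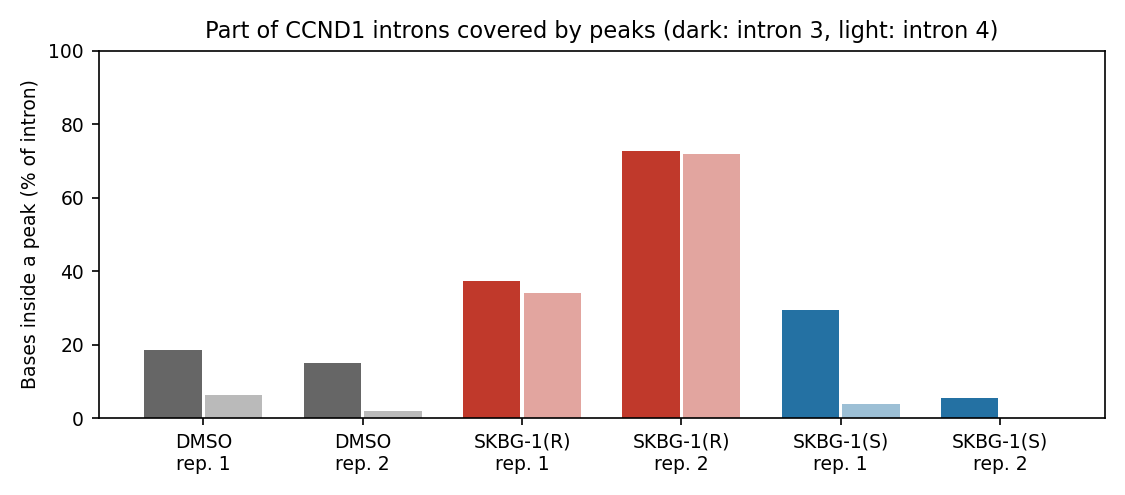
Percent of the bases of CCND1 intron 3 (dark bars) and intron 4 (light bars) that lie inside a peak, 1 pair of bars per list. Intron 4 reaches 34.2 and 72.0% in the SKBG-1(R) lists and at most 6.32% in the other 4.

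The balance between the introns was compared next. Of the peaks in introns 3 and 4, intron 4 held 3 of 15 (20%, 95% Wilson interval 7.05 to 45.2%) and 1 of 11 (9.09%, 1.62 to 37.7%) in the DMSO lists. In the SKBG-1(R) lists it held 22 of 54 (40.7%, 28.7 to 54.0%) and 61 of 159 (38.4%, 31.2 to 46.1%). In the SKBG-1(S) lists it held 2 of 21 (9.52%, 2.65 to 28.9%) and 0 of 4 (upper bound 49.0%). The SKBG-1(R) lists, of very unlike size, were close to each other and above the other 4, whose intervals were wide and in part overlapped theirs. Intervals cover counting error only, and neighbouring peaks of 1 transcript are not independent. The group means were 14.5% under DMSO, 39.6% under SKBG-1(R) and 4.76% under SKBG-1(S).

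The CCND1 peaks of the smaller sets fell on places that the SKBG-1(R) lists also held. All 15 CCND1 peaks of DMSO replicate 1 overlapped a peak of SKBG-1(R) replicate 1, and all 15 overlapped one of replicate 2. For the other genes of that DMSO list the shares were 60.5 and 59.5%. All 21 peaks of SKBG-1(S) replicate 1 and all 4 of SKBG-1(S) replicate 2 overlapped both SKBG-1(R) lists too. For other genes the shares with SKBG-1(R) replicates 1 and 2 were 57.3 and 66.3% of the first list and 21.5 and 61.9% of the second. Of the 11 peaks of DMSO replicate 2, 10 overlapped SKBG-1(R) replicate 1 and all 11 overlapped replicate 2, against 14.0 and 63.4% for other genes. Between the DMSO lists 3 of 15 peaks of replicate 1 (20%, against 33.3% for other genes) and 3 of 11 of replicate 2 (27.3%, against 6.75%) overlapped. Within SKBG-1(R), 54 of the 56 peaks of replicate 1 overlapped replicate 2 (96.4%, against 53.2% for other genes). The wide cover of replicate 2 raises any overlap with it.

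Counted by base, 5465 bases of CCND1 lay in a peak of any list. Of the 1893 that lay in a DMSO or SKBG-1(S) peak, 98.2% were also in an SKBG-1(R) peak, and 80.6% when only SKBG-1(R) replicate 1 was counted. Both SKBG-1(R) lists shared 2470 bases, and 959 of these (38.8%) were in no other list. The introns differed in this: of the shared bases, 237 of 1459 in intron 3 (16.2%) and 722 of 1011 in intron 4 (71.4%) were in the SKBG-1(R) lists alone. No base of CCND1 was in a peak of all 6 lists, and 240 were in 5. Such shares of bases were not counted for other genes.

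Peaks that overlapped by at least 1 nt were joined into 102 CCND1 regions. One region, chr11:69646963-69647145 in intron 3, drew a peak from every list, and its strongest peak had a log2 enrichment of 3.72 and 4.53 under DMSO, 5.36 and 5.47 under SKBG-1(R) and 3.49 and 3.43 under SKBG-1(S). The SKBG-1(R) lists were the highest there. A further 4 regions were held by 5 lists, all in intron 3. Their positions were 69644371 to 69644809, 69645455 to 69645593, 69646730 to 69646802 and 69647543 to 69647614. No region was held by a DMSO list without an SKBG-1(R) list. The wide cover of SKBG-1(R) replicate 2, 72.8% of intron 3 and 72.0% of intron 4, favours such a result. There were 18 regions shared by both SKBG-1(R) lists alone, 5 of the 54 in intron 3 and 13 of the 36 in intron 4. A further 58 were in SKBG-1(R) replicate 2 alone, many of them touching end to end. With touching peaks joined the gene had 40 regions, 12 in SKBG-1(R) replicate 2 alone and 9 shared by both SKBG-1(R) lists alone. How often such regions occurred in other genes was not counted.

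Of those 18 regions, the 6 with the highest log2 enrichment in their weaker list included 5 in intron 4. The first, 69650096 to 69650196, had 4.53 and 4.997 in replicates 1 and 2. The next was 69650398 to 69650477, with 4.36 and 5.14, and then 69648831 to 69648907, with 4.30 and 5.16. The other intron 4 regions began at 69650897 and 69649638, and 1 region, 69646532 to 69646566, was in intron 3. They are spread along the introns and do not form 1 block.

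Enrichment over input, the authors' own value per peak, was highest in the same lists. Median log2 enrichment of CCND1 peaks was 3.72 and 3.44 under DMSO, 4.08 and 4.39 under SKBG-1(R) and 3.67 and 3.14 under SKBG-1(S). The medians of all peaks in those lists were 3.72, 3.59, 3.77, 3.75, 3.76 and 3.64. The CCND1 median was above that of its list in the SKBG-1(R) lists and level with or below it in the other 4. A log2 enrichment of 4 or more was reached by 3 of 15 and 1 of 11 CCND1 peaks for DMSO, 31 of 56 and 133 of 169 under SKBG-1(R) and 6 of 21 and 0 of 4 under SKBG-1(S). In all genes of the SKBG-1(R) lists the share was 34.5 and 35.5%, against 55.4 and 78.7% for CCND1.

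The same held within regions that 2 lists shared, taking the strongest peak of each. DMSO replicate 1 shared 13 regions with SKBG-1(R) replicate 1 and was the lower in 11 of them, with medians of 3.72 and 4.33. It shared 13 with replicate 2 and was the lower in 11, with medians of 3.72 and 4.65. SKBG-1(R) replicate 2 was the higher in 16 of 17 regions shared with SKBG-1(S) replicate 1, and SKBG-1(R) replicate 1 in 11 of the 17 it shared with that list. A list with more peaks in a region has more chances of a high one.

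**Figure D4:**
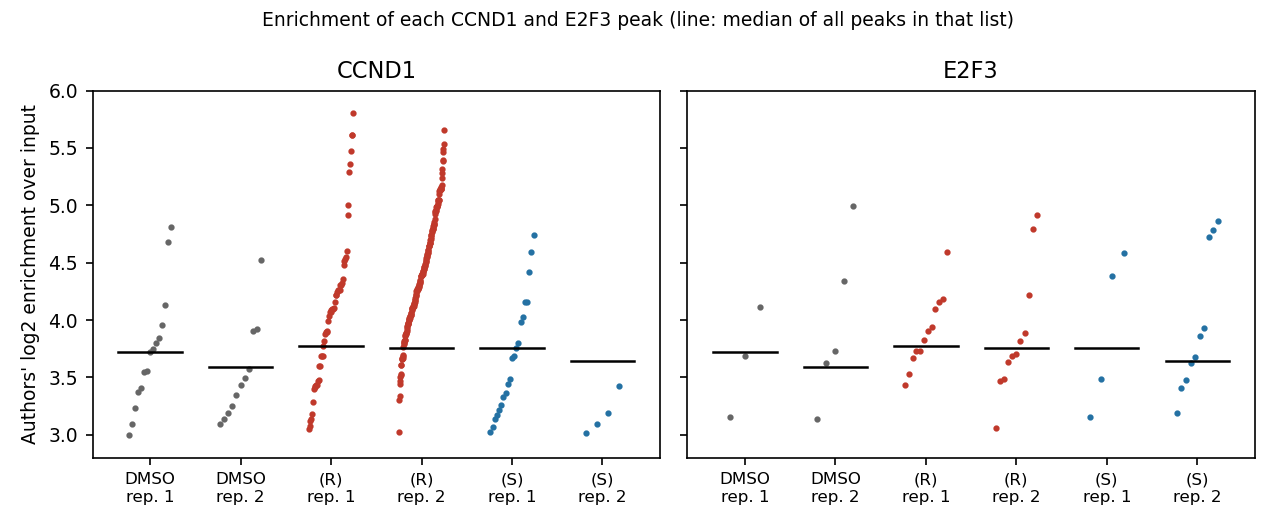
Authors' log2 enrichment over input of every CCND1 and E2F3 peak (points, sorted within a list), with a line at the median of all peaks in that list. CCND1 medians of 4.08 and 4.39 in the SKBG-1(R) lists lie above the lines at 3.77 and 3.75, and E2F3 peaks lie on either side of the line in every list.

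The 3′ UTR of CCND1, 3.195 kb long, held 2 peaks of SKBG-1(R) replicate 1, 10 of replicate 2 and 0 of the other lists. The peaks of the replicates did not overlap: those of replicate 1 began at 69652044 and 69652441, and those of replicate 2 at 69653521 or later. The strongest was 69653521 to 69653563 in replicate 2, with a log2 enrichment of 5.24. The authors' classes put 13 peaks of replicate 2 in a 3′ UTR. The 3 that differ lie at the start of intron 4 of CCND1-201, from 69648184, in or at the UTR of the shorter transcript CCND1-203, which ends at 69648240. Of all CCND1 peaks the authors put 209 in their distal intron class and 51 in their proximal one.

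E2F3 (ENSG00000112242.14, chr6:20401906-20493715, plus strand, 91.81 kb) showed another layout. All 45 peaks lay in intron 1 of the transcript E2F3-201, an intron of 77.22 kb, and 44 of them (97.8%) in the first 3 kb of the gene. That share ranked 80 of the 441 genes from the highest. The first peak began 15 nt after the end of exon 1. Relative to the GENCODE start of the shorter transcript E2F3-202 at 20403679, 31 peaks lay before it, 1 across it and 13 after it. Most thus lay in RNA of the longer transcripts only. The RefSeq start is earlier, at 20403614, and the region 20403560 to 20403680 spans it, so the split depends on the annotation. The remaining peak, 20411718 to 20411815 in SKBG-1(R) replicate 2, was weak, with a −log10 p of 3.11.

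**Figure D5:**
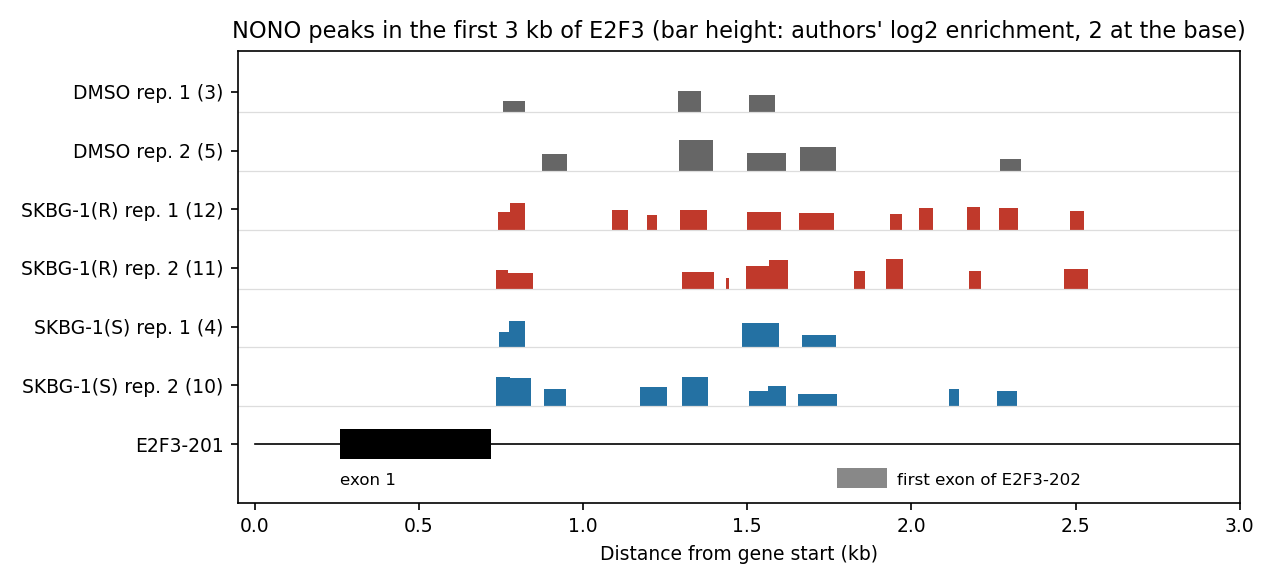
Peaks of each list over the first 3 kb of E2F3, in kb from the gene start, with exon 1 of E2F3-201 and, in grey, the first exon of E2F3-202. Bar height is the authors' log2 enrichment, drawn from 2. The counts beside the lists are for the whole gene and include 1 peak of SKBG-1(R) replicate 2 farther along. Of the 16 regions of the whole gene, 3 are held by 5 or 6 lists and 6 by 1 list only.

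E2F3 numbered 3 and 5 peaks under DMSO, 12 and 11 under SKBG-1(R) and 4 and 10 under SKBG-1(S). Per 10000 peaks that was 44.8 and 13.6 under DMSO, 61.4 and 7.41 under SKBG-1(R) and 32.3 and 25.2 under SKBG-1(S). Both the highest and the lowest value belonged to SKBG-1(R), and the groups overlapped. The means were 29.2 ± 22.1, 34.4 ± 38.2 and 28.8 ± 5.04 (SD, n = 2 lists each), in the order DMSO, SKBG-1(R) and SKBG-1(S). The fitted log2 differences were -0.09 for SKBG-1(R) against DMSO (95% interval -2.29 to 2.11), 0.15 for SKBG-1(S) against DMSO (-2.06 to 2.35) and -0.24 for SKBG-1(R) against SKBG-1(S) (-2.44 to 1.97). Intervals of this width do not show that the treatments acted alike. The signs also depended on the scaling: SKBG-1(R) against DMSO was 0.20 with TMM scaling and 1.19 with none, and SKBG-1(R) against SKBG-1(S) was 0.67 with none.

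The 45 E2F3 peaks formed 16 regions. The region of all 6 lists was 20403389 to 20403528, 764 nt after exon 1 and ending 86 nt before the RefSeq start at 20403614. It holds the capitals of the first sequence shown. Its strongest peaks had a log2 enrichment of 3.69 and 3.73 under DMSO, 3.73 and 4.79 under SKBG-1(R) and 4.39 and 3.94 under SKBG-1(S). No treatment stood apart there. The region 20402640 to 20402754, just inside intron 1, was in all lists but DMSO replicate 2, and 20403196 to 20403304 was in all but SKBG-1(S) replicate 1. One region was in a DMSO list and in no SKBG-1(R) list, the one whose sequence is shown second.

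There were 3 E2F3 regions shared by both SKBG-1(R) lists alone, starting at 20403830, 20404077 and 20404372. All of them lay after the start of E2F3-202. The first spans the end of that transcript's first exon at 20403832, and the authors classed its peak in replicate 2, with a log2 enrichment of 4.92, as coding. Of the 12 peaks of SKBG-1(R) replicate 1, 7 overlapped replicate 2 (58.3%, Wilson interval 32.0 to 80.7%), near the 53.2% of other genes. By base, 112 of the 373 bases in both SKBG-1(R) lists (30.03%) were in no other list. Neither this share nor the number of such regions was counted for other genes. Median log2 enrichment of E2F3 peaks was 3.69 and 3.73 under DMSO, 3.87 and 3.70 under SKBG-1(R) and 3.94 and 3.77 under SKBG-1(S), within 0.2 of the list's median in each case.

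RefSeq promoter windows (250 bases before to 50 after a start, GRCh38.p14) matched 1 of the genes, E2F3, with 2 windows. The window that holds the region of all lists was 77.3% G or C, against a median of 58.7% over 34943 windows of the same length, and the 80 shared bases were 80% G or C. Short runs of letters were searched on both strands, with overlapping matches counted. GGGG occurred 10 times on the sense strand and 9 times on the other, and 75.1% of all windows held it on the sense strand. AGGGA occurred 0 times on the sense strand and 2 times on the other, and 64.6% of windows held it on either. GTAAG was not in the window, and 23.5% of all windows held it on either strand. The run TTTT was not in it either, and 71.4% of all windows held that. A longer run of G counts as several matches.

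Across the 6 lists the log2 peaks per 10000 of CCND1 and E2F3 had a Pearson r of 0.47. The genes most like CCND1 in this respect were RER1 (r = 0.86, 14 peaks), MLPH (0.85), ARFRP1 (0.85), ARID1A (0.84) and MED16 (0.82). Among those most like E2F3 were PRRC2B (0.99, 61 peaks), GALNT7 (0.98), CLOCK (0.97) and PTK2B (0.96). These are descriptions over 6 points that share list size, and replicate 1 exceeded replicate 2 for both genes in every group.

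The other G1/S genes listed each had fewer peaks than either member of the pair. Of 52 listed genes besides the pair, which include the other D cyclins, CDK4 and CDK6, 7 had any. In the whole series 1689 gene names had a peak, but their share of all annotated genes was not counted. The 7 are therefore not read as few or many. CDKN2A, which encodes the CDK4 and CDK6 inhibitor p16, had 12, with 1 and 2 under DMSO, 2 and 4 under SKBG-1(R) and 1 and 2 under SKBG-1(S). CTNNB1, which encodes beta-catenin, had 8, TFDP1, the E2F partner, 6, CDKN1A, the inhibitor p21, 5, and LIN54, of the DREAM complex, 3. AMBRA1 and FBXO31, both linked to the breakdown of cyclin D1, had 1 each. Only CDKN2A had enough peaks to be tested, and it did not pass in any comparison (limma, 0 of 1 higher and 0 of 1 lower).

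Of 17 genes listed as neighbours of the pair, 3 had peaks, again without a share over all annotated genes to set beside it. TPCN2, an ion channel gene near CCND1 on chromosome 11, had 0 and 2 under DMSO, 0 and 33 under SKBG-1(R) and 0 and 2 under SKBG-1(S). Its peaks were thus nearly all in SKBG-1(R) replicate 2. SHANK2 had 7 and PPFIA1 had 2. Unlike in CCND1, SKBG-1(R) replicate 1 had no peak in these neighbours.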

How the data were processed

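Groups and replicate numbers came from the sample titles: 12 eCLIP libraries, 2 immunoprecipitates and 2 inputs for each of 3 treatments. The authors deposited 1 peak list per immunoprecipitate, each called with the matching input, so replicates were not pooled. The submitters' processing notes name the tools cutadapt 1.9 and STAR 2.4.0i, and the builds hg19 and hg38. The peak coordinates matched GENCODE 29 gene models on GRCh38. The sources used here name no peak caller. Among the columns, the deposited −log10 p (lowest 3.00, cap 400) and the deposited log2 enrichment over input (lowest 3) are the authors' values and served only to describe, rank or filter peaks within a list.

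Peaks of CCND1 and E2F3 were taken by the authors' gene name and placed by midpoint on CCND1-201 and E2F3-201. Peaks per 10000 of the list were fitted on the log2 scale with limma 3.58.1 in R 4.3.3 (prior count 2 scaled to list size, trended variance, all 6 lists in 1 fit) over 479 genes with at least 10 peaks, with a Benjamini-Hochberg threshold of 0.05. The 60 intergenic peaks counted in list size only. Depth is unknown, and intervals of shares are 95% Wilson. Python 3.11.15 was used for overlaps of at least 1 nt and for sequences, which were read from RefSeq and GENCODE and agreed where they overlapped.

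The fit was tested on simulated data. A first requirement, on the share of changed genes called, was not met and was dropped after that; the requirements then kept were on signs, false calls and the size of the differences, so the fit has limited power to call genes. Members, gene lists and the rule for named genes (list genes with 10 or more peaks by list, the 5 genes most alike, regions by number of lists, then at most 6 by their weaker list's enrichment) were chosen with earlier results of these data known. Listed genes with fewer peaks, and the strongest 3′ UTR peak, were named after their values were seen. Alternatives were scaling, prior count, filters, equal lists, summed widths, overlap, a replicate block and each list left out. Some genes that the rule names are not reported here.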

Additional observations from a re-analysis of the deposited data

How the results depend on the processing

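Of 227 values under alternative settings, 181 kept their direction and side of the threshold or stayed near their value, 31 moved and 15 changed sign. A fold change counted as kept if its sign held and it moved by no more than the gene's residual SD. That SD was wide, 1.91 (log2) for CCND1 and 1.17 for E2F3. CCND1 for SKBG-1(R) against SKBG-1(S) thus counted as kept at 0.09, against 1.88 in the main fit. The tally is therefore a loose measure of stability. No fold change of either gene rests on a call.

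The number of genes called for SKBG-1(R) against DMSO was 0, and 1 with summed widths; leaving out 1 list gave 0 to 23, 23 of them when SKBG-1(R) replicate 1 was the list omitted, and 1 when DMSO replicate 2 was. For SKBG-1(R) against SKBG-1(S) it was 0 to 23, again 23 without SKBG-1(R) replicate 1, and for SKBG-1(S) against DMSO it was 0 throughout. The cause was not tested.

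The replicate numbers show no shared culture or day in the labels. Same-numbered lists deviated together over 479 genes (r = 0.54 for DMSO and SKBG-1(R), 0.58 for DMSO and SKBG-1(S), 0.42 for SKBG-1(R) and SKBG-1(S)), but with only 2 numbers this does not establish a pairing. With the replicate block, 1 gene was called for SKBG-1(R) against DMSO and 0 in the others, and genes at an unadjusted p under 0.05 rose from 15, 6 and 5 to 38, 23 and 33 (SKBG-1(R) against DMSO, SKBG-1(S) against DMSO, SKBG-1(R) against SKBG-1(S)). With 1 list of each number per group the block cannot move a fold change, but it narrows the intervals. CCND1 had -0.37 to 2.50, -2.25 to 0.62 and 0.44 to 3.31. The last of these leaves out 0, but CCND1 was selected on these same counts, so it is a description and no test. The 3 intervals of E2F3 all include 0, from -1.77 at the lowest to 1.68 at the highest.

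With 1 list left out, CCND1 ranged from -0.30 to 2.45 for SKBG-1(R) against DMSO (log2; -0.30 without DMSO replicate 2), from -2.64 to 0.97 for SKBG-1(S) against DMSO (0.54 without DMSO replicate 1, 0.97 without SKBG-1(S) replicate 2) and from 0.09 to 3.72 for SKBG-1(R) against SKBG-1(S). E2F3 ranged from -1.35 to 1.02, from -0.58 to 0.89 and from -1.51 to 0.91. In such fits the lone list is assumed to vary like the other groups. E2F3 for SKBG-1(R) against DMSO turned to 0.20 with TMM scaling, 1.19 with no scaling and 0.16 at a −log10 p of at least 5. For SKBG-1(S) against DMSO it turned to -0.16 with lists of equal size and -0.032 with summed widths, and for SKBG-1(R) against SKBG-1(S) to 0.67 with no scaling and 0.035 with equal lists. The median over all genes for SKBG-1(R) against DMSO was 0.23, 0.35 with TMM and 1.10 with no scaling.

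The mean share of intron 4 in SKBG-1(R) was 39.6%, 41.6% at a log2 enrichment of at least 4 and 41.4% at a −log10 p of at least 5. The share of E2F3 peaks in the first 3 kb was 97.8%, 100% at either of those limits and with equal lists, and 96.97 to 100% with a list left out (100% without SKBG-1(R) replicate 2). Overlap of SKBG-1(R) replicate 1 with replicate 2 fell from 96.4 to 75% for CCND1 under the stricter overlap rule, by share of the peak, and for E2F3 from 58.3 to 0% at a log2 enrichment of at least 4 and 20% with equal lists. Regions of all lists were 1 for each gene, 0 for each at a log2 enrichment of at least 4 or a −log10 p of at least 5, and 2 for CCND1 with touching peaks joined; with a list left out they were 1 to 3 for CCND1 and 1 to 2 for E2F3. Regions in both SKBG-1(R) lists alone were 18 for CCND1, and 9 with touching peaks joined. For E2F3 they were 3, then 0 at a log2 enrichment of at least 4, 1 at a −log10 p of at least 5 and 0 with equal lists. Peaks per kb of CCND1 were 20.6, and 7.99 to 20.3 with a list left out (7.99 without SKBG-1(R) replicate 2). Joining touching peaks and leaving lists out of the density were chosen after seeing the data.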

Other observations

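Among the marker genes, SRRM4, a splicing regulator of neuroendocrine cells, had 6 and 3 peaks for DMSO, 0 in both SKBG-1(R) lists, and 1 and 2 for SKBG-1(S), with an adjusted p by limma of 0.993 for SKBG-1(R) against DMSO. SPDEF, a transcription factor of prostate epithelium, had 1 and 7 for DMSO, 2 and 29 for SKBG-1(R), and 4 and 12 for SKBG-1(S).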
